A study of Mus musculus with 24 samples.

Results

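The genes of the spindle checkpoint, the kinetochore and mitosis were examined across ribosome profiling (ribo-seq) and RNA-seq of mouse N2a neuroblastoma cells. Members were taken by gene symbol from a list of 58 names, of which 56 had a row in the count tables, out of 12759 transcripts over 8 tables. The listed names Sgol1 and Sgol2a had no row under those symbols. The tables carry Sgo1 and Sgo2a, which are the newer names of the shugoshins and which were kept out of every count. By role, the 56 genes comprised 8 of the spindle checkpoint, 8 of the outer kinetochore, 9 centromere proteins, 6 mitotic kinases and passenger proteins, 6 in the group of Cdk1, cyclins and Cdc25, 5 of the anaphase-promoting complex (APC/C) and sister cohesion, 8 spindle motors and microtubule proteins, and 6 of condensin and topoisomerase. They lie on 17 chromosomes, and all 56 passed the filter on low counts in every comparison.

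The cells were of 2 kinds, a control line (ctrl) that received the empty pSpCas9(BB)-Puro vector and a KO line that received the same vector with 3 guides against exons of Eif4e3, a cap-binding protein of the eIF4E family. Both lines were selected with puromycin over repeated rounds of transfection and are pools of surviving cells, so the KO line is neither 1 clone nor necessarily free of unedited cells. Cells of each line then received Torin1, an inhibitor of the kinase mTOR, at 250 nM for 2 h, or DMSO as the vehicle. RNA-seq gave 3 libraries for each of the 4 conditions, and ribo-seq gave 3 for each but the ctrl cells in DMSO, where replicate 2 was not used here and 2 remained. The replicates came from different passages of the same 2 lines, so the p-values measure the spread between passages of these 2 pools.

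Mitosis depends on kinetochores, protein assemblies built on the centromere that hold chromosomes to spindle microtubules. The spindle checkpoint senses kinetochores that lack this attachment and holds back the APC/C, the ubiquitin ligase that triggers sister separation and destroys cyclin B. Most of these genes are transcribed late in the cell cycle, from promoters that the DREAM, B-Myb and FoxM1 complexes bind through a short element called the CHR. In a proliferating tumour line such as N2a they are widely expressed, and in bulk samples a smaller fraction of cells in mitosis and less RNA per cell cannot be told apart.

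Eif4e3, the targeted gene, was at 12.0 to 18.2 CPM (counts scaled to the size of the library) in the ctrl RNA-seq libraries and at 2.89 to 5.04 CPM in those of KO cells. Its footprints ranged from 11.6 to 22.1 CPM in ctrl cells and from 2.29 to 6.61 CPM in KO cells. By western blot, the paper reports that the eIF4E3 protein could not be detected in KO cells. The 11 neuroblastoma markers used summed to between 2022 and 2860 CPM in each RNA-seq library. Markers of fibroblasts (2 of 6 in the tables), glia (1 of 5), leukocytes (1 of 5) and epithelium (1 of 4) each summed to at most 4.08 CPM. The RNA-seq libraries held 17047795 to 28910907 counts and the ribo-seq libraries 669010 to 5284909. The shallowest, ctrl DMSO replicate 3 of ribo-seq, had a median of 67 footprints over the 56 genes and a lowest count of 8, for Mis12.

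Levels between genes were compared per kilobase of coding sequence. In ctrl cells in DMSO the mRNA of Cdk1, the kinase that drives entry into mitosis, was the most abundant at 539 CPM per kb, followed by the checkpoint protein Bub3 (320 CPM per kb), the topoisomerase Top2a (305), cyclin B1, Ccnb1 (293), and Zwint, which docks on the kinetochore scaffold (205). At the other end stood the long kinetochore and spindle genes Knl1 (11.8 CPM per kb), Kif18a (11.7) and Aspm (10.4). The ratio of footprints to mRNA on this scale, the translation efficiency (TE), had a median log2 value of -0.24 over the 56 genes in ctrl cells in DMSO and of -0.11 over 10366 transcripts. In Torin1 the medians were -0.05 and -0.14 in ctrl cells, and 0.17 and -0.13 in KO cells, where DMSO gave -0.20 and -0.10. The number of the 56 genes above the median of all transcripts was 20 in ctrl DMSO, 31 in ctrl Torin1, 25 in KO DMSO and 35 in KO Torin1.

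Many of the promoters held the sequence elements that this class of genes is known for. RefSeq windows (build GRCm38.p6) of 300 bases, from 250 before to 50 after the gene start, were found for 47 of the members. The CHR core TTTGAA, read on either strand (TTCAAA on the other), stood in the windows of 26 members (55.3%), against 14.0% of the genes in the count tables and 20.2% of all genes with a window. A CCAAT box on either strand was in 34 members (72.3%), against 43.6% of the genes in the tables, and both motifs together were in 23 members (48.9%) against 5.95%. A start with C and 4 pyrimidines, the mark of mRNAs with a terminal oligopyrimidine tract, whose translation depends on mTOR, was in the window of 1 member, Cenpk (2.13%), close to the 3.08% of the genes in the tables, and of 12 of 57 ribosomal protein genes (21.1%). The paper describes mRNAs with such a tract as coding mainly for ribosomal proteins, and the search found the letters in few of those genes. Absence of the letters at an annotated start therefore does not show that a gene lacks the tract. All these matches are descriptions of letters in the windows and not sites of binding. The stretches below, each of 30 bases on the strand of the gene with the CHR core in capitals, show the element in genes of different roles and different responses to Torin1:
Kif11, chr19:37376351-37376380 (+): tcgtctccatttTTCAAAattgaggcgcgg
Ncapg, chr5:45669883-45669912 (+): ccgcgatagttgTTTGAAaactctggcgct
Prc1, chr7:80294434-80294463 (+): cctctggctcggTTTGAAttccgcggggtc
Cdk1, chr10:69352966-69352995 (-): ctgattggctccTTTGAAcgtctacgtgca
Cdc20, chr4:118437344-118437373 (-): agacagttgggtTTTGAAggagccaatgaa
Bub3, chr7:131560315-131560344 (+): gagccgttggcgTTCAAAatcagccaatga
Top2a, chr11:99024195-99024224 (-): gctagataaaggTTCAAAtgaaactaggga
The first 3 of these genes gained footprints in Torin1 in both lines, Cdk1, Cdc20 and Top2a did not pass the test, and Bub3 lost footprints in KO cells. The element was in 12 of the 25 windows of genes that gained footprints in KO cells and in 14 of the 22 windows of the others. In ctrl cells these counts were 10 of 16 and 16 of 31.

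Relative to other transcripts, footprints of many of these genes rose in Torin1 in both lines. All footprint values here are scaled within libraries, so they do not give absolute amounts of translation. The paper reports that Torin1 reduced heavy polysomes in both lines. Together the 56 genes took 0.714% ± 0.0629 (SD, n = 2) of the footprints in ctrl cells in DMSO and 1.04% ± 0.0691 (n = 3) in Torin1. In KO cells the share was 0.799% ± 0.0770 in DMSO and 1.20% ± 0.0580 in Torin1 (SD, n = 3 each). The ribo-seq libraries did not overlap between DMSO and Torin1 in either line. These shares are not scaled beyond library size. On that scale the median footprint change of all transcripts in Torin1 was also above 0, at a log2 of 0.23 in ctrl and 0.26 in KO cells. Over the 56 genes it was 0.61 and 0.57. Of the RNA-seq counts the same genes took 0.909% ± 0.0704 in ctrl DMSO, 0.989% ± 0.00712 in ctrl Torin1, 0.985% ± 0.0597 in KO DMSO and 1.00% ± 0.0485 in KO Torin1 (SD, n = 3 each).

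**Figure D1:**
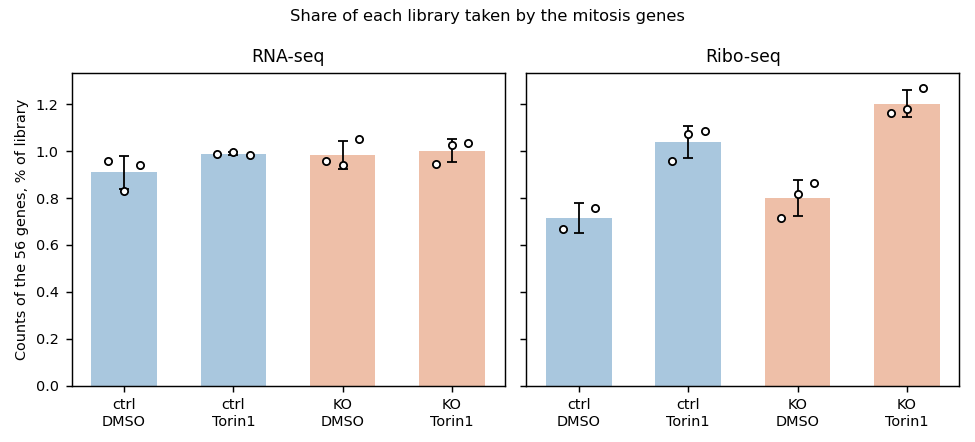
Share of all counts of a library that fell on the 56 mitosis genes, in percent, for RNA-seq (left) and ribo-seq (right). Bars are group means, error bars SD and points single libraries, and in ribo-seq every Torin1 library lies above every DMSO library of its line. Shares are not scaled beyond library size, and on that scale the median footprint change of all transcripts was also above 0.

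By edgeR's quasi-likelihood test, 18 of the 56 genes had more footprints in Torin1 in ctrl cells and none had fewer, where 5.69% of all transcripts tested rose and 9.93% fell (adjusted p under 0.05). In KO cells 29 rose and 1 fell, against 18.5% and 22.1% of all transcripts. The median log2 change over the 56 genes was 0.40 in ctrl cells and 0.32 in KO cells, while the medians of all transcripts were 0.02 in both. Of the genes that rose, 16 did so in both lines, which is 88.9% of those of ctrl cells and 55.2% of those of KO cells. The 2 lines share no libraries. The share of all transcripts that rose in both lines is not given here, so this overlap stands without that background. All DMSO libraries lay below all Torin1 libraries for 32 genes in ctrl cells and for 33 in KO cells, where 20.8% and 24.5% of all transcripts did. Across the 56 genes the changes in the 2 lines had a Pearson r of 0.79, as a description of genes that share libraries within each line, and across all transcripts r was 0.79 too.

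Leaving out 1 library changed how many genes were called in ctrl cells. The number was 2 without ctrl DMSO replicate 1, which leaves the shallow replicate 3 as the lone DMSO library, 5 without ctrl Torin1 replicate 2, 4 without ctrl Torin1 replicate 3 and 27 without ctrl DMSO replicate 3. Of the 18 genes, Nuf2 alone passed the test under all 10 alternative settings. In KO cells the number of genes called in either direction stayed between 26 and 33 when any library was left out, and 25 of the 29 genes that rose passed under all 11 alternatives. The 4 that did not were Ccnb1, Cenpi, Kif20a and Mis12. By DESeq2, 12 of the 56 genes rose in ctrl cells and none fell, where 2.88% of all transcripts rose and 6.06% fell. Aspm, Bub1, Cenph, Kif18a, Ncaph and Zwilch, called by edgeR in ctrl cells, did not pass there by DESeq2. In KO cells DESeq2 called 29 higher and 1 lower, against 15% and 18.7% of all transcripts. Without scaling beyond the library size, the median of all transcripts shifted to 0.23 in ctrl cells and 0.26 in KO cells, and 32 and 43 of the 56 genes were called higher, none lower. Without that scaling 15.8% of all transcripts rose and 6.4% fell in ctrl cells, and 34.8% rose and 14.2% fell in KO cells.

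**Figure D2:**
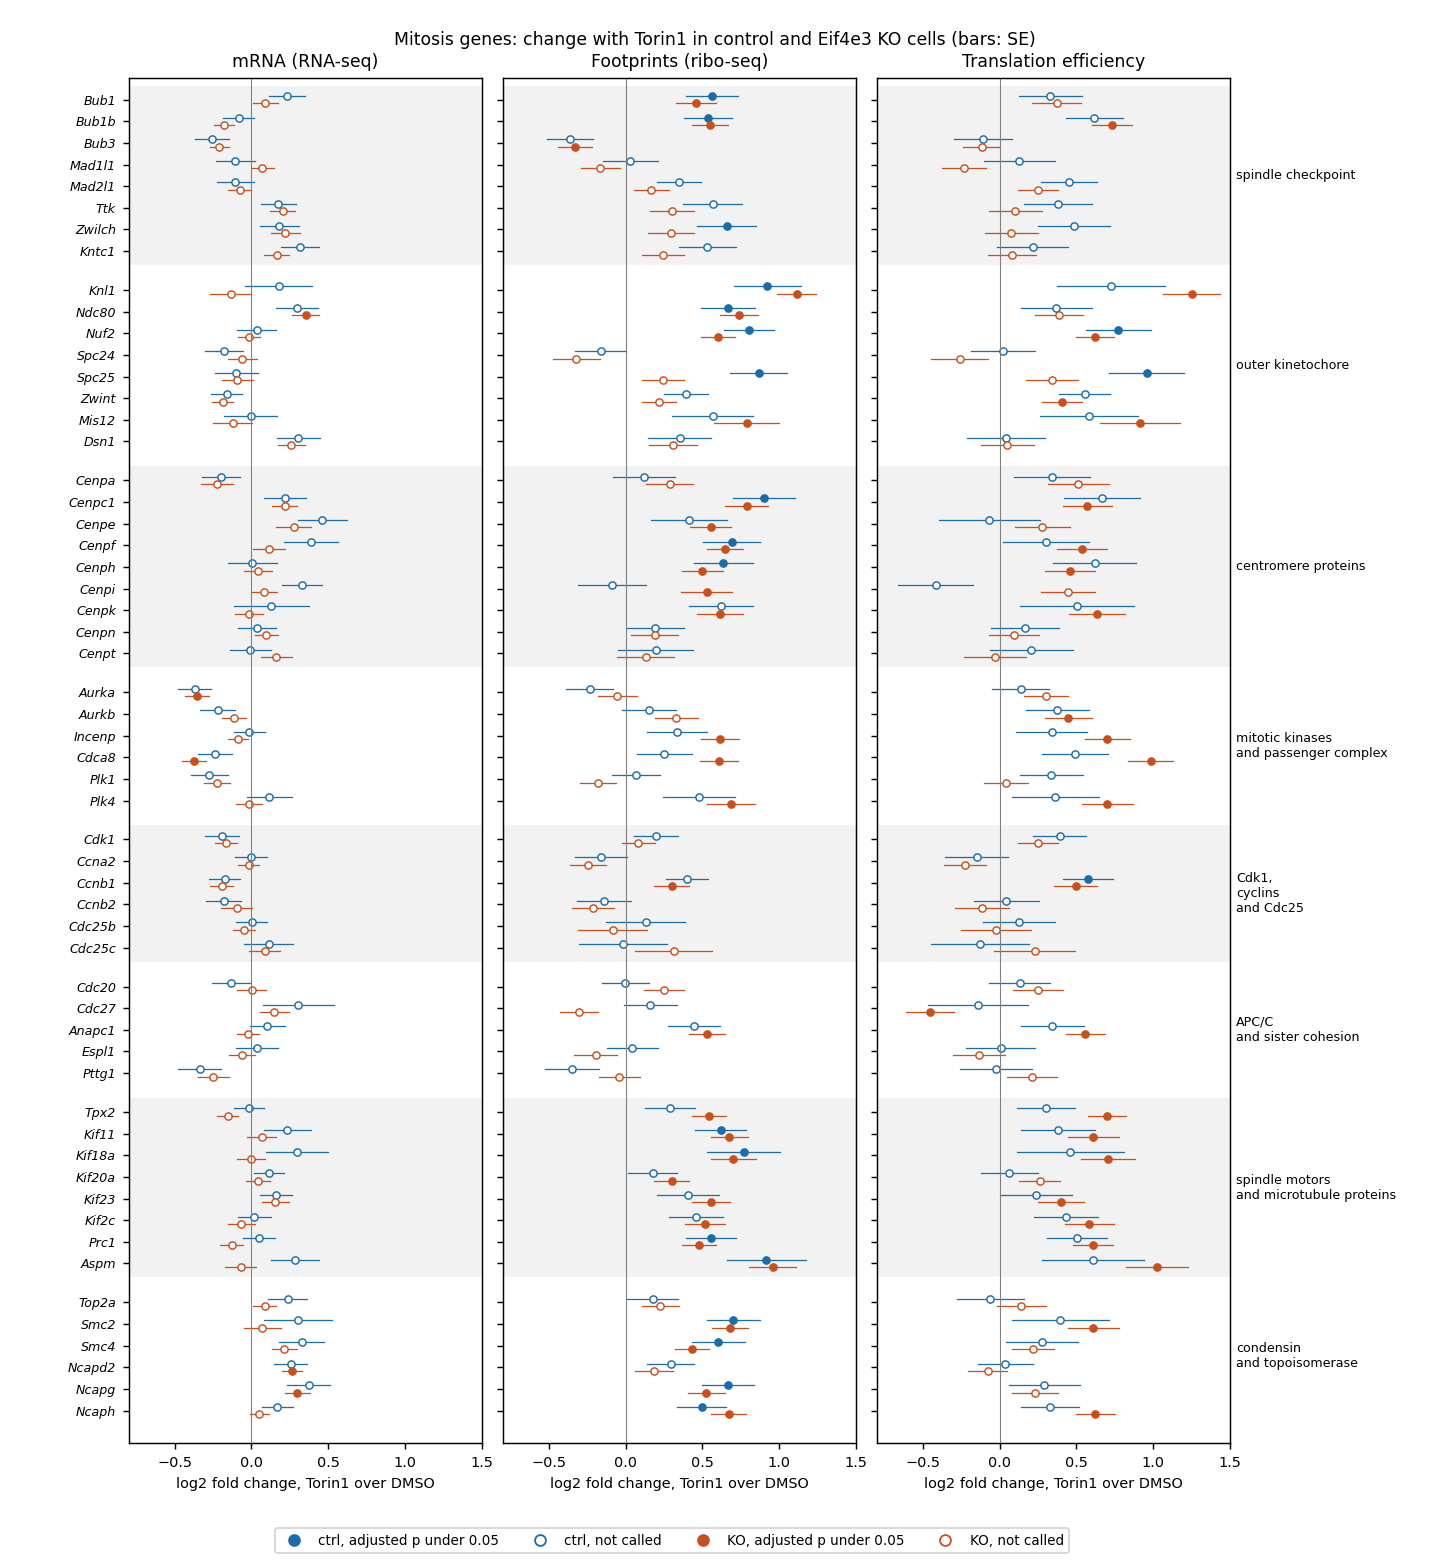
Log2 fold change of Torin1 over DMSO for the 56 genes, grouped by role, in mRNA (left), footprints (middle) and TE (right). Points are estimates and bars SE, blue for ctrl and orange for KO cells, filled where the adjusted p is under 0.05, and most filled points lie to the right of 0 in the footprint panel, with Bub3 in KO cells to the left.

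The outer kinetochore grips microtubules. It holds Knl1, whose estimated change in footprints was the largest of the 56 in both lines, close to those of Aspm and Cenpc1 in ctrl cells. Of this group 4 of 8 genes rose in ctrl cells (Knl1, Ndc80, Nuf2 and Spc25) and 4 of 8 in KO cells (Knl1, Mis12, Ndc80 and Nuf2). Knl1 (chr2:119047119-119105501, + strand, GRCm38), the scaffold that recruits Bub1 to kinetochores, had 45.5 and 84.3 CPM of footprints in ctrl DMSO and 93.4, 117 and 111 CPM in ctrl Torin1. In KO cells it had 58.1, 71.1 and 75.4 CPM in DMSO and 148, 142 and 162 CPM in Torin1. The DMSO and Torin1 libraries were apart in both lines, and the 2 ctrl DMSO libraries differed from each other more than any other pair of one condition. The log2 change of Knl1 was 0.92 ± 0.22 (SE; adjusted p = 0.0074) in ctrl cells and 1.12 ± 0.13 (adjusted p = 1.47e-08) in KO cells. Its mRNA overlapped between DMSO and Torin1, at 45.3 to 96.9 against 77.9 to 91.7 CPM in ctrl cells and 67.9 to 111 against 80.3 to 86.9 CPM in KO cells.

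Ndc80 and Nuf2 form the end of the complex that binds the microtubule, and Spc25 belongs to the end that faces the centromere. Nuf2 had 151 and 114 CPM in ctrl DMSO, 219, 259.6 and 236 CPM in ctrl Torin1, 152, 171 and 176 CPM in KO DMSO, and 263, 263 and 244 CPM in KO Torin1. Every Torin1 library was above every DMSO library, with log2 changes of 0.81 ± 0.16 in ctrl cells (adjusted p = 0.00192) and 0.60 ± 0.11 in KO cells (adjusted p = 5.4e-05). Ndc80 had 90.4 and 104 CPM in ctrl DMSO against 147, 128 and 178 CPM in ctrl Torin1, and 88.1, 113 and 121 CPM in KO DMSO against 182, 170.4 and 195 CPM in KO Torin1. Its changes were 0.67 ± 0.18 (adjusted p = 0.014) and 0.74 ± 0.12 (adjusted p = 1.43e-05), again with no overlap. For Spc25 the ctrl libraries moved from 37.4 and 43.8 CPM to 71.6, 70.8 and 71.5 CPM, a log2 change of 0.87 ± 0.19 (adjusted p = 0.00373). In KO cells Spc25 was already at 54.1, 65.2 and 70.2 CPM in DMSO and stood at 81.9, 70.8 and 75.5 CPM in Torin1, with a change of 0.25 ± 0.14 (adjusted p = 0.158). Zwint did not pass the footprint test in either line, with changes of 0.39 ± 0.14 and 0.22 ± 0.11.

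In the spindle checkpoint 3 of 8 genes rose in ctrl cells (Bub1, Bub1b and Zwilch), and in KO cells 2 rose (Bub1 and Bub1b) and 1 fell (Bub3). Bub1b encodes BubR1, which inhibits the APC/C as part of the mitotic checkpoint complex. Its footprints went from 132 and 172 CPM to 202, 212 and 224 CPM in ctrl cells, and from 131, 168 and 158 CPM to 229, 218 and 234 CPM in KO cells. The changes were 0.54 ± 0.16 (adjusted p = 0.0266) and 0.55 ± 0.12 (adjusted p = 0.000284), and the groups did not overlap in either line. Bub1, a kinase that marks the inner centromere, went from 67.4 and 74.6 CPM to 102, 112 and 93.7 CPM in ctrl cells, and from 84.9, 97.9 and 127 CPM to 141, 140.2 and 150.3 CPM in KO cells. Its changes of 0.57 ± 0.17 (adjusted p = 0.0301) and 0.46 ± 0.13 (adjusted p = 0.00542) came with groups that stood apart. Bub3, which carries Bub1 and BubR1 to kinetochores, went the other way in KO cells, from 301, 286 and 327 CPM to 268, 233 and 235 CPM (-0.33 ± 0.11, adjusted p = 0.0182). In ctrl cells Bub3 stood at 301 and 234 CPM in DMSO and at 192, 222 and 219.7 CPM in Torin1 (-0.36 ± 0.15, adjusted p = 0.116). The call for Bub3 was lost without KO DMSO replicate 3, KO Torin1 replicate 2 or KO Torin1 replicate 3, and without scaling beyond library size. Mad2l1, the checkpoint protein Mad2, had 181 to 204 CPM in the DMSO libraries and 206 to 245 CPM in the Torin1 libraries, and did not pass the test in either line (0.35 ± 0.14 and 0.17 ± 0.11).

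Among the centromere proteins 3 of 9 rose in ctrl cells (Cenpc1, Cenpf and Cenph) and 6 of 9 in KO cells, where Cenpe, Cenpi and Cenpk joined them. Cenpc1 encodes CENP-C, which binds the centromeric nucleosome and carries the outer kinetochore. It had 36.4 and 50.3 CPM in ctrl DMSO, 65.9, 77.3 and 80.6 CPM in ctrl Torin1, 45.4, 57.5 and 54.9 CPM in KO DMSO, and 78.9, 97.2 and 103 CPM in KO Torin1. These groups did not overlap, and the log2 changes were 0.90 ± 0.20 (adjusted p = 0.00456) and 0.79 ± 0.14 (adjusted p = 3.55e-05). Cenpf, a large coiled-coil protein of the kinetochore corona, had 268 and 417 CPM in ctrl DMSO against 443, 594 and 575 CPM in ctrl Torin1, and 326, 456 and 430 CPM in KO DMSO against 624, 592 and 714 CPM in KO Torin1. Its changes were 0.69 ± 0.18 (adjusted p = 0.016) and 0.65 ± 0.12 (adjusted p = 3.94e-05). Cenpa, the histone H3 variant that defines the centromere, ranged from 47.0 to 82.0 CPM over the DMSO libraries and from 65.6 to 100.4 CPM over the Torin1 libraries, and the groups overlapped in both lines (0.12 ± 0.20 and 0.29 ± 0.16).

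Of the 6 mitotic kinases and passenger proteins, none passed the footprint test in ctrl cells, and Cdca8, Incenp and Plk4 rose in KO cells. Cdca8 encodes borealin, which with Incenp and Aurora B forms the chromosomal passenger complex. Its footprints in KO cells went from 115, 109 and 93.1 CPM to 181, 166 and 142 CPM (0.61 ± 0.13, adjusted p = 0.000214), with no overlap. In ctrl cells they went from 109 and 136 CPM to 148, 115 and 162 CPM (0.25 ± 0.18), and the groups overlapped. Incenp, the scaffold of that complex, changed by 0.61 ± 0.13 in KO cells (adjusted p = 0.000199), and Plk4, which starts centriole duplication, by 0.69 ± 0.15 (adjusted p = 0.00056). The kinase of the complex, Aurkb, had 53.3 to 62.5 CPM in KO DMSO and 63.4 to 79.0 CPM in KO Torin1, apart but short of the threshold (0.33 ± 0.14, adjusted p = 0.0602). Plk1, the polo kinase of mitotic entry and exit, lay between 138 and 170 CPM in all ctrl libraries and between 126 and 162 CPM in all KO libraries.

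The group of Cdk1, cyclins and Cdc25 had 1 call in KO cells and none in ctrl cells. Ccnb1, the cyclin whose destruction ends mitosis, had 575, 694 and 776 CPM in KO DMSO and 757, 864 and 930.0 CPM in KO Torin1 (0.30 ± 0.11, adjusted p = 0.0327), with overlapping groups. In ctrl cells its groups stood apart, at 631 and 540.1 CPM against 757, 771 and 800 CPM, and the test gave 0.40 ± 0.14 (adjusted p = 0.0583). The call for Ccnb1 in KO cells was lost without any 1 of 4 libraries, namely KO DMSO replicates 1 and 2 and KO Torin1 replicates 2 and 3. Cdk1 had 532 and 449 CPM in ctrl DMSO, 586, 561 and 553 CPM in ctrl Torin1, 489.9, 542 and 613 CPM in KO DMSO and 616, 546 and 602 CPM in KO Torin1. It changed by 0.20 ± 0.14 and 0.08 ± 0.11, and neither change passed the test.

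In the group of the APC/C and sister cohesion, Anapc1, the largest subunit of the ligase, was the 1 of 5 genes that rose, in KO cells. It went from 94.4, 107 and 107 CPM to 148, 154 and 151 CPM (0.53 ± 0.12, adjusted p = 0.000486). Espl1, the protease separase that cuts cohesin, overlapped between DMSO and Torin1 in both lines (0.04 ± 0.17 and -0.20 ± 0.14).

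All 8 spindle motors and microtubule proteins rose in KO cells and 4 in ctrl cells (Aspm, Kif11, Kif18a and Prc1). Aspm (chr1:139454772-139494091, + strand), a protein of the spindle poles, had 38.6 and 92.4 CPM in ctrl DMSO and 93.4, 97.6 and 115 CPM in ctrl Torin1, so that the shallow replicate 3 nearly reached the Torin1 libraries. In KO cells it had 49.8, 78.0 and 86.5 CPM in DMSO and 115, 148 and 164 CPM in Torin1. The changes were 0.92 ± 0.26 (adjusted p = 0.0215) and 0.96 ± 0.15 (adjusted p = 6.59e-06). Kif11, the motor that pushes the poles apart, had 171 and 229 CPM in ctrl DMSO against 255, 335 and 303 CPM in ctrl Torin1, and 193, 271 and 275 CPM in KO DMSO against 366, 391 and 445 CPM in KO Torin1. Its groups were apart in both lines, with changes of 0.62 ± 0.17 (adjusted p = 0.0179) and 0.68 ± 0.12 (adjusted p = 3.96e-05). Tpx2 activates Aurora A on the spindle. It overlapped in ctrl cells, at 138 and 187 CPM against 174, 184 and 215 CPM (0.29 ± 0.17), and was apart in KO cells, at 160.0, 184 and 191 CPM against 248, 271 and 272 CPM (0.54 ± 0.11, adjusted p = 0.000232).

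Condensin compacts chromosomes, and 4 of the 6 genes of condensin and topoisomerase rose in both lines, namely Ncapg, Ncaph, Smc2 and Smc4. Smc2, one of the paired ATPases of the ring, had 125 and 180.0 CPM in ctrl DMSO, 216, 227 and 268 CPM in ctrl Torin1, 156, 210.1 and 204 CPM in KO DMSO, and 303, 313 and 313 CPM in KO Torin1. Its changes were 0.70 ± 0.17 (adjusted p = 0.00989) and 0.68 ± 0.12 (adjusted p = 1.86e-05). Ncaph, the kleisin that closes the ring, had 120.1 and 133 CPM in ctrl DMSO, 152, 196 and 178 CPM in ctrl Torin1, 147, 127 and 159 CPM in KO DMSO, and 233, 229 and 236 CPM in KO Torin1. The groups stood apart for both genes, and Ncaph changed by 0.50 ± 0.16 (adjusted p = 0.0416) and 0.67 ± 0.12 (adjusted p = 2.05e-05). Top2a, which untangles sister DNA, overlapped between DMSO and Torin1 in both lines, at 796 and 1159.6 CPM against 928, 1153.5 and 1197 CPM in ctrl cells and at 919, 1317 and 1371 CPM against 1318, 1367 and 1594 CPM in KO cells.

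**Figure D3:**
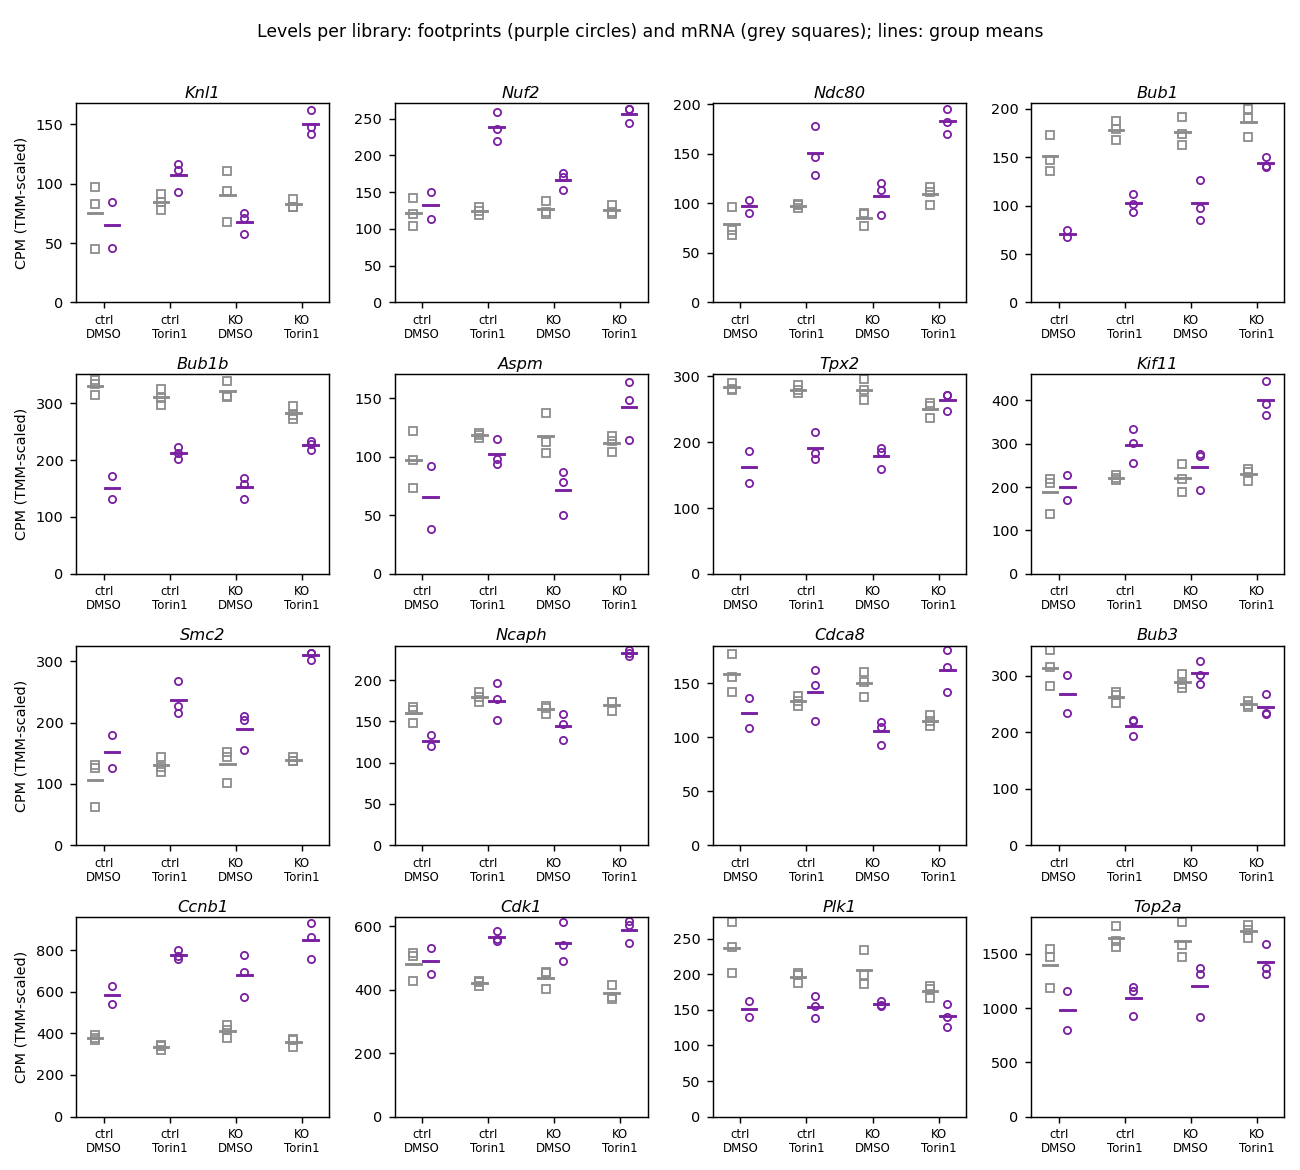
Level in every library for 16 of the genes, in CPM scaled by trimmed mean of M-values, with footprints as purple circles, mRNA as grey squares and group means as lines. Footprints of Knl1, Nuf2, Ndc80, Bub1b, Kif11, Smc2 and Ncaph lie higher in Torin1 than in DMSO in both lines, Bub3 lies lower in KO cells, and Cdk1, Plk1 and Top2a overlap in KO cells.

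The shugoshins, which protect centromeric cohesion and were not counted among the members, also rose in KO cells. Sgo1 had 28.8, 23.4 and 28.8 CPM of footprints in KO DMSO and 58.2, 69.9 and 51.4 CPM in KO Torin1 (1.15 ± 0.16, adjusted p = 9.15e-07), and Sgo2a changed by 0.51 ± 0.14 (adjusted p = 0.00299). In ctrl cells Sgo1 had 28.3 and 9.73 CPM in DMSO and 25.3, 45.8 and 42.6 CPM in Torin1, and neither gene passed the test there.

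With all libraries in the fit, the share of the 56 genes called in mRNA was not above that of all transcripts in either line. In ctrl cells none was called in Torin1, where 2.73% of all transcripts were. The unadjusted p in edgeR was under 0.05 for 11 of them (23% of all transcripts), and DESeq2 called 1 (6.6%). Without ctrl DMSO replicate 3, 6 genes were called, and the share of all transcripts called in that fit is not given here. With the replicate number as a block there were 4 calls, where 12.1% of all transcripts were called. In KO cells 3 genes rose and 2 fell, against 6.23% and 3.74% of all transcripts. Ndc80 rose by 0.35 ± 0.09 (adjusted p = 0.0303), and the condensin subunits Ncapd2 and Ncapg rose by 0.26 ± 0.06 (adjusted p = 0.0235) and 0.30 ± 0.08 (adjusted p = 0.0378). Cdca8 fell by 0.37 ± 0.08 on the log2 scale (adjusted p = 0.0107), from 138, 161 and 152 CPM to 110.2, 121 and 115 CPM. Aurka, the kinase of the spindle poles, fell by 0.35 ± 0.08 (adjusted p = 0.0159), from 117, 137 and 126 CPM to 93.7, 102 and 101 CPM. For Cdca8 and Aurka the DMSO and Torin1 libraries of KO cells were apart. Leaving out a Torin1 library of KO cells gave 2 (replicate 1), 1 (replicate 2) or 0 calls (replicate 3), and leaving out one of their DMSO libraries gave 2 (replicate 1), 9 (replicate 2) or 10 (replicate 3). For these fits too the share of all transcripts is not given. With the replicate number as a block 9 were called, against 16.3% of all transcripts. The RNA-seq libraries of a group differed in how they treated long coding sequences. Over the 56 genes, the deviation of a library from the others of its group was correlated with log2 coding length. The r was 0.81 in ctrl DMSO replicate 3, -0.52 in ctrl DMSO replicate 2, -0.58 in KO DMSO replicate 2 and 0.60 in KO DMSO replicate 3. The part of this in these counts was not tested.

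Translation efficiency, tested as the change in footprints over the change in mRNA in one edgeR model of both assays, rose for 3 of the 56 genes in ctrl cells and fell for none, where 0.383% of all transcripts rose and 4.29% fell. They were Spc25 (0.96 ± 0.25, adjusted p = 0.0236), Nuf2 (0.77 ± 0.21, adjusted p = 0.0354) and Ccnb1 (0.57 ± 0.16, adjusted p = 0.0487). In KO cells 24 rose and 1 fell, against 10.6% and 17.8% of all transcripts. The median log2 change in TE over the 56 genes was 0.33 in ctrl cells and 0.36 in KO cells, and over all transcripts it was -0.01 in both. DESeq2 called 5 genes higher in ctrl cells (0.7% of all transcripts rose and 4.58% fell), and 25 higher and 1 lower in KO cells (11.7% and 17.9%). The count in ctrl cells was 0 without any 1 of the RNA-seq libraries ctrl DMSO replicate 1, ctrl Torin1 replicate 1 and ctrl Torin1 replicate 3 or of the ribo-seq libraries ctrl Torin1 replicates 2 and 3. It was 1 without RNA-seq ctrl Torin1 replicate 2, 8 without RNA-seq ctrl DMSO replicate 2, and 1 with the replicate number as a block (4.39% of all transcripts). In KO cells it stayed between 19 and 28, and 17 of the 24 genes that rose did so under all 17 alternatives. Without scaling beyond library size the median of all transcripts was 0.16 in ctrl cells and 0.24 in KO cells, and 6 and 38 genes were called higher, none lower. Of all transcripts, 1.75% then rose and 3.12% fell in ctrl cells, and 25.6% rose and 11.3% fell in KO cells.

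By role, TE rose in KO cells for 1 checkpoint gene (Bub1b), 4 of the outer kinetochore, 4 centromere proteins, 4 kinases and passenger proteins, 1 gene in the group of Cdk1, cyclins and Cdc25 (Ccnb1), 1 of the APC/C (Anapc1), 7 motors and microtubule proteins and 2 of condensin (Ncaph and Smc2). The sizes were 1.25 ± 0.19 for Knl1 (adjusted p = 1.48e-05), 0.99 ± 0.15 for Cdca8 (adjusted p = 1.28e-05), 1.03 ± 0.20 for Aspm (adjusted p = 0.000415), 0.70 ± 0.12 for Tpx2 (adjusted p = 0.000138) and 0.73 ± 0.13 for Bub1b (adjusted p = 0.000113). As levels, the TE of Knl1 was 0.750 in KO DMSO and 1.82 in KO Torin1, and that of Cdca8 was 0.704 and 1.41. Ccnb1, with 1.65 in KO DMSO and 2.37 in KO Torin1, rose by 0.50 ± 0.14 (adjusted p = 0.00994). For Cdca8 a rise in footprints met a fall in mRNA, and for Ndc80, whose mRNA rose, the change in TE of 0.39 ± 0.15 did not pass the test (adjusted p = 0.0634). The gene that fell was Cdc27, a subunit of the APC/C (-0.45 ± 0.16, adjusted p = 0.0306). Its footprints in KO cells were 111, 110.4 and 131 CPM in DMSO and 88.1, 98.6 and 103 CPM in Torin1. That call was lost without scaling beyond library size, and without RNA-seq KO DMSO replicate 2, KO Torin1 replicate 1 or KO Torin1 replicate 3, or ribo-seq KO DMSO replicate 3, KO Torin1 replicate 1 or KO Torin1 replicate 2.

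KO and ctrl cells were then compared in each treatment, to ask whether loss of eIF4E3 alters these genes. In DMSO no gene of the 56 was called in mRNA (0.0183% of all transcripts were), in footprints (0.0279%) or in TE (0%). The unadjusted p in edgeR was under 0.05 for 0, 6 and 1 of them (5.91%, 7.9% and 4.09% of all transcripts), and DESeq2 called 0 in each (0.192%, 0.0279% and 0%). In Torin1 the mRNA again gave no call (1.96% of all transcripts), with 15 genes at an unadjusted p under 0.05 in edgeR (17.8%) and 2 called by DESeq2 (3.11%). With the replicate number as a block, the mRNA gave 6 calls in DMSO, where 7.93% of all transcripts were called, and 12 in Torin1, where 9.46% were.

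In footprints under Torin1, 9 of the 56 genes were higher in KO than in ctrl cells and none was lower, where 2.02% of all transcripts were higher and 4.01% lower. They were Bub1 (0.48 ± 0.12, adjusted p = 0.0101), Knl1 (0.48 ± 0.12, adjusted p = 0.011), Tpx2 (0.46 ± 0.11, adjusted p = 0.00621), Kif11 (0.42 ± 0.11, adjusted p = 0.0116), Kif18a (0.57 ± 0.16, adjusted p = 0.0222), Aspm (0.47 ± 0.13, adjusted p = 0.0212), Top2a (0.38 ± 0.10, adjusted p = 0.0147), Smc2 (0.38 ± 0.11, adjusted p = 0.0207) and Ncaph (0.40 ± 0.11, adjusted p = 0.0215). Kif18a is a motor that dampens chromosome movements at the metaphase plate. By the values given above, all KO Torin1 libraries of Bub1 (140.2 to 150.3 CPM against 93.7 to 112), Knl1 (142 to 162 against 93.4 to 117) and Ncaph (229 to 236 against 152 to 196) were above all ctrl Torin1 libraries, and those of Aspm overlapped in part. The median log2 difference over the 56 genes was 0.14 in Torin1, where that of all transcripts was 0.00, and 0.16 in DMSO. Tpx2 was the 1 gene of the 9 called under all 11 alternatives. The count was 2 without ctrl Torin1 replicate 1 or without KO Torin1 replicate 3, and 4 without KO Torin1 replicate 2.

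In TE under Torin1, 4 genes were higher in KO cells and none lower, where 0.59% of all transcripts were higher and 2.26% lower. Tpx2 differed by 0.62 (adjusted p = 0.00227), Ncaph by 0.48 (adjusted p = 0.0187), Knl1 by 0.51 (adjusted p = 0.0275) and Aspm by 0.55 (adjusted p = 0.031). This test shares its ribo-seq libraries with the test of footprints. DESeq2 called 6 genes higher (1.37% of all transcripts higher and 3.44% lower). Without RNA-seq ctrl Torin1 replicate 1 or 2 the count was 2, and without RNA-seq KO Torin1 replicate 1 or ribo-seq ctrl Torin1 replicate 1 it was 1. With the replicate number as a block, 8 were called in either direction (5.15% of all transcripts).

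**Figure D4:**
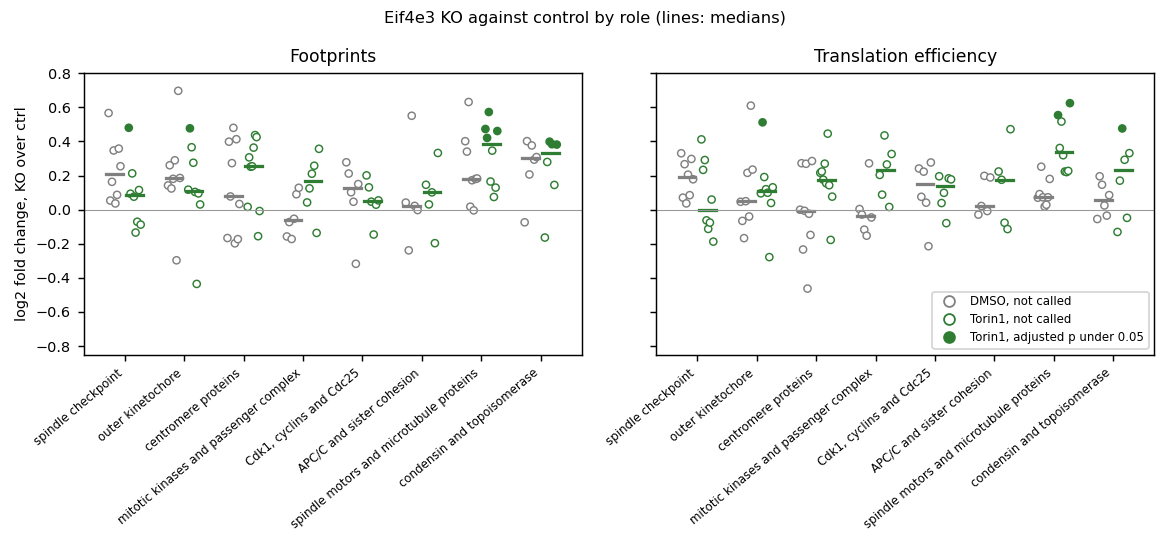
Log2 fold change of KO over ctrl cells for the 56 genes by role, in footprints (left) and TE (right), in DMSO (grey) and in Torin1 (green). Points are genes, lines are medians of a role and filled points have an adjusted p under 0.05, which 9 genes reach in footprints and 4 in TE, all in Torin1 and all above 0.

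Whether Torin1 acted differently in the 2 lines was tested by an interaction of genotype and treatment. No gene of the 56 was called in mRNA, footprints or TE by edgeR, where 0%, 0.114% and 0% of all transcripts were, and DESeq2 called 0 as well (0%, 0.36% and 0.154%). The unadjusted p in edgeR was under 0.05 for 0, 3 and 2 of them (0.975%, 6.91% and 5.69%). For Knl1 the interaction in footprints was 0.19 ± 0.25, for Tpx2 0.27 ± 0.20 and for Cdca8 0.37 ± 0.22 (SE). The larger number of genes called in KO than in ctrl cells is therefore not shown to be a difference between the lines, and ctrl cells in DMSO had 1 ribo-seq library fewer.

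The genes were longer than most. The median coding length was 2041.5 nt for the 56 genes and 1359 nt for all transcripts, their 5′ TL was close to that of all transcripts (157.5 and 171 nt), and their 3′ UTR was shorter (523 and 953 nt). In footprints, the change in Torin1 rose with coding length over all transcripts, from a median of -0.14 under 500 nt to 0.28 at 5000 nt or more in ctrl cells and from -0.15 to 0.32 in KO cells. In each of the 6 length classes, the shortest of which held 1 member, the median of the 56 genes lay above that of all transcripts in both lines, for example at 0.35 against -0.12 from 500 to under 1000 nt and at 0.59 against 0.19 from 3000 to under 5000 nt in ctrl cells. In KO cells they were 0.22 against -0.13 and 0.49 against 0.20. Among the 13 members of 2000 to under 3000 nt, 10 rose in KO cells, where 23.8% of all transcripts of that length did. Across the 56 genes the footprint change had an r with log2 coding length of 0.37 in ctrl and 0.36 in KO cells, the mRNA change one of 0.69 and 0.43, and the TE change one of -0.10 and 0.15. These points share libraries, and the ribo-seq libraries differed among themselves by coding length too. Ctrl DMSO replicate 3 lay above replicate 1 in 34 of the 56 genes, with an r of 0.61 between its deviation and log2 coding length. In ctrl Torin1 replicates 1, 2 and 3 this r was -0.58, 0.26 and 0.35. In KO cells it was -0.60, 0.30 and 0.48 in DMSO and -0.31, 0.19 and 0.28 in Torin1. The part of this in the change was not tested in either line.

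**Figure D5:**
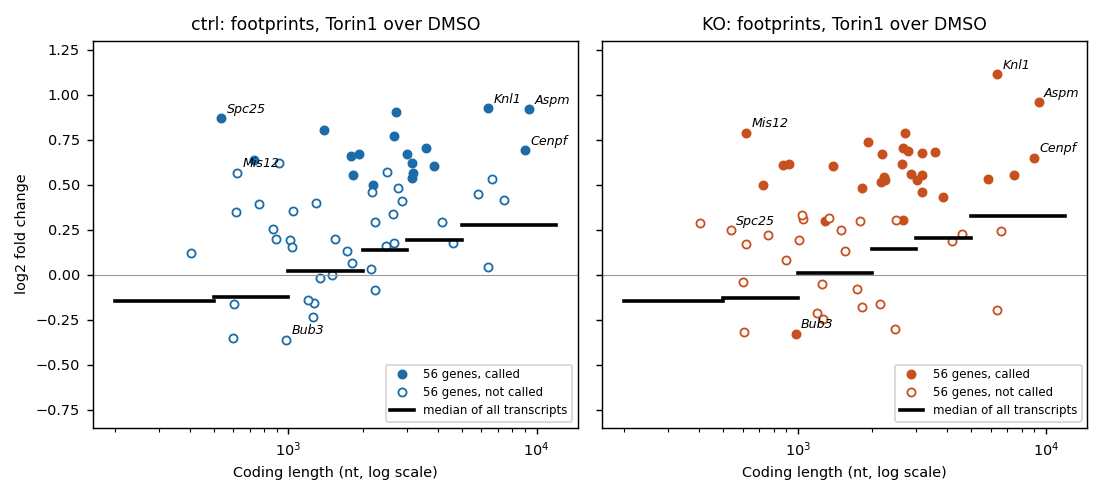
Log2 fold change of footprints in Torin1 over DMSO against coding length (nt, log scale) for the 56 genes in ctrl (left) and KO cells (right). Filled points have an adjusted p under 0.05, and black lines are the medians of all transcripts in 6 length classes. The genes lie mostly above these lines, with Bub3 among those below.

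Of 71 other mitosis genes with a row, 15 had more footprints in Torin1 in ctrl cells and 1 had fewer, and in KO cells 30 had more and 6 had fewer, against the same shares of all transcripts as above. Anln, a scaffold of the cytokinetic ring, rose by 1.05 ± 0.21 in ctrl cells (adjusted p = 0.00178) and by 0.90 ± 0.14 in KO cells (adjusted p = 4.23e-06). The microtubule polymerase Ckap5 rose by 0.74 ± 0.15 (adjusted p = 0.00238) in ctrl cells, and in KO cells the proliferation marker Mki67 rose by 0.91 ± 0.12 (adjusted p = 1.29e-07) and the motor Kif18b by 0.80 ± 0.12 (adjusted p = 3.15e-06). Among those with fewer footprints, Ube2c, the ubiquitin-conjugating enzyme of the APC/C, changed by -1.07 ± 0.14 in KO cells (adjusted p = 3.25e-07), the condensin II subunit Ncaph2 by -0.75 ± 0.12 (adjusted p = 4.47e-06) and the APC/C subunit Anapc5 by -0.67 ± 0.12 (adjusted p = 5.16e-05). In ctrl cells Mad2l2 changed by -0.80 ± 0.23 (adjusted p = 0.0243). Between the lines in Torin1, 8 of the 71 were higher in KO cells and 1 was lower, where 2.02% of all transcripts were higher and 4.01% lower. Mki67 was at 0.53 ± 0.11 (adjusted p = 0.00162), Anln at 0.60 ± 0.13 (adjusted p = 0.00371) and Ncaph2 at -0.41 ± 0.11 (adjusted p = 0.0222).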

How the data were processed

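The authors trimmed ribo-seq reads with cutadapt, kept those of 25 to 35 nt, aligned all reads to mm10 with HISAT2, removed rRNA, tRNA and pseudogene reads and mapped the rest to canonical transcripts with bowtie2. The deposited values used here are raw counts per transcript, of P-sites in the coding sequence for ribo-seq and of reads overlapping it for RNA-seq. Columns of the authors' own comparisons (edgeR fold changes and p-values, and 2 tables of RiboDiff TE) were not used.

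Transcripts that exceeded 1 CPM in every library of 1 or both conditions compared were tested with edgeR 4.0.16 (quasi-likelihood F-test, TMM scaling, Benjamini-Hochberg adjustment over all transcripts, threshold 0.05) in R 4.3.3. SE is the log2 change over the square root of F. TE was the interaction of assay and condition, and TMM was computed within each assay. CPM levels were scaled by TMM over all libraries of an assay. Alternatives were relative log expression scaling, no scaling, no filter, DESeq2 1.42.0, the replicate number as a block, and leaving out each library. In the RNA-seq table of both lines in DMSO, 2 columns per line carry the same number and were used without one. The scripts were tested on simulated counts. Lengths came from GENCODE annotation of GRCm38 and promoters from RefSeq. Summaries used Python 3.11.15 with pandas 2.3.3 and matplotlib 3.10.9.

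The members and lists were chosen with earlier results of these data known. Named genes were all called members where at most 12 were called, otherwise the 3 with the smallest p in each role, with the most abundant uncalled member of each role and a set of well-known members. From the other lists, up to 3 called genes in each direction were named. The shugoshins, Mis12 in the account of depth and the genes whose promoters are printed were chosen after their values were seen. Ribo-seq ctrl DMSO replicate 2, which the authors discarded, was left out of every fit. Counts give depth and its error only for the reads counted, since no molecular identifiers were used in these values.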

Additional observations from a re-analysis of the deposited data

How the results depend on the processing

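Of the 94 single-gene results that passed the test, none reversed over 1205 alternative values, 1019 stayed past the threshold and 186 did not. Counts of members called ranged, when each library was left out in turn, from 0 to 6 for mRNA in ctrl cells and from 0 to 10 for mRNA in KO cells. For footprints they ranged from 2 to 27 in ctrl cells, from 26 to 33 in KO cells and from 2 to 9 for KO against ctrl in Torin1. For TE they ranged from 0 to 8 in ctrl cells, from 19 to 28 in KO cells and from 1 to 6 for KO against ctrl in Torin1. The other counts stayed at 0. Shares of all transcripts called in the fits with a library left out are not given here, so these counts stand without that background. In ctrl cells, leaving out a ribo-seq DMSO library leaves 1, which is then assumed to vary like the Torin1 libraries.

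Without scaling beyond library size, footprints in ctrl cells gave 32 calls, TE in ctrl cells 6 and TE in KO cells 38. DESeq2 gave 1 call for mRNA in ctrl cells, 2 for mRNA of KO against ctrl in Torin1 and 5 for TE in ctrl cells. For footprints in ctrl cells it gave 12 calls, where edgeR gave 18. The cause of these differences was not tested. Replicates share numbers across groups. Same-numbered libraries of different groups had correlated deviations between -0.04 and 0.705 in RNA-seq, with a median of 0.134. In ribo-seq these lay between -0.034 and 0.157, with a median of 0.0465. For libraries of different groups with different numbers, the medians were lower, at -0.0701 in RNA-seq and -0.0303 in ribo-seq, and the ranges overlapped. Whether the numbers pair the libraries was not tested, and the main fits were run without a block. Per the labels each replicate is a different passage, without a word on whether groups share a passage. By their highest correlation, 9 of 12 RNA-seq and 8 of 11 ribo-seq libraries matched one of their own number. Without a block, 2.73% of all transcripts were called for mRNA in ctrl cells and 9.97% in KO cells. For KO against ctrl the mRNA shares were 0.0183% in DMSO and 1.96% in Torin1. With the replicate number as a block, mRNA gave 4 calls in ctrl cells (12.1% of all transcripts), 9 in KO cells (16.3%), 6 for KO against ctrl in DMSO (7.93%) and 12 for KO against ctrl in Torin1 (9.46%), and TE gave 1 in ctrl cells (4.39%) and 8 for KO against ctrl in Torin1 (5.15%). Relative log expression scaling and testing without the filter kept each of these counts within 1.5 times.

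Depth also limits the ribo-seq results, since ctrl DMSO replicate 3 held 669010 counts, and 2 DMSO libraries of ctrl cells carry each comparison that uses them.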

Other observations

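Genes that work beside mitosis in the cell cycle were read from the same fits. Of 11 cohesin genes, which hold sister chromatids together, 5 had more footprints in Torin1 in ctrl cells and 7 in KO cells, where 5.69% and 18.5% of all transcripts rose, and none had fewer, where 9.93% and 22.1% fell. Nipbl, the cohesin loader, changed by 0.82 ± 0.16 in ctrl cells (edgeR adjusted p = 0.00169) and by 0.71 ± 0.13 in KO cells (adjusted p = 7.33e-05). Esco2, an acetyltransferase for cohesin, changed by 1.08 ± 0.21 in ctrl cells (adjusted p = 0.00178), and Rad21, the kleisin of the ring, by 0.63 ± 0.11 in KO cells (adjusted p = 1.27e-05). No cohesin gene differed between KO and ctrl cells in Torin1 at an adjusted p under 0.05 in edgeR, where 6.03% of all transcripts did. In edgeR 3 had an unadjusted p under 0.05 (20.3% of all transcripts), and DESeq2 called 0 (3.91%).

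Of 14 genes of the B-Myb, FoxM1 and MuvB regulators of mitotic transcription, 0 rose in footprints in ctrl cells by edgeR and 1 fell. Of all transcripts 5.69% rose and 9.93% fell. DESeq2 gave the same counts (2.88% and 6.06%), and 2 genes had an unadjusted p under 0.05 in edgeR (29.6%). In KO cells 6 rose and 1 fell by edgeR, where 18.5% and 22.1% of all transcripts did. The counts in ctrl cells and the count lower in KO cells were close to or below these shares. In KO cells the MuvB subunits Lin54 (0.79 ± 0.19, adjusted p = 0.00104) and Lin9 (0.56 ± 0.15, adjusted p = 0.0044) rose. E2f4, a repressor in the DREAM complex, changed by -1.07 ± 0.22 in ctrl cells (adjusted p = 0.00293) and by -0.61 ± 0.20 in KO cells (adjusted p = 0.0148).

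Of the 43 genes of DNA replication and the G1/S transition, 3 were higher and 2 lower in ctrl cells and 12 higher and 7 lower in KO cells, against the same shares of all transcripts, to which the counts in ctrl cells and the count lower in KO cells were close or below. Pcna, the sliding clamp, rose by 0.58 ± 0.14 in ctrl cells (adjusted p = 0.0074) and 0.41 ± 0.10 in KO cells (adjusted p = 0.00197). The D cyclins changed the other way, with Ccnd1 at -0.66 ± 0.15 (adjusted p = 0.00556) and -0.97 ± 0.12 (adjusted p = 6.26e-08), and Ccnd3 at -0.96 ± 0.23 (adjusted p = 0.00895) and -1.56 ± 0.24 (adjusted p = 4.27e-06). Between the lines in Torin1, Ccnd3 was lower in KO cells by 1.13 on the log2 scale (-1.13 ± 0.28, adjusted p = 0.00955), and Pold1, the catalytic subunit of a replicative polymerase, differed by -0.48 ± 0.14 (adjusted p = 0.0338).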
